A study of Mus musculus with 12 samples.

Results

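Type I interferon stimulated genes are the genes that cells switch on when interferon alpha or beta binds its receptor. A fixed list of 45 such genes, chosen by name but with earlier results of these data known, was followed in tumor-associated macrophages (TAMs). All 45 were present among the 55401 genes of each deposited count table, each on a single row, and all 45 had enough counts to be tested in both comparisons of the study. TAMs had been sorted from subcutaneous tumors of B16-F10, a mouse melanoma cell line, grown in mice of C57BL/6 background that were 5 weeks old by the methods, and had been given no other treatment. The first comparison set 3 AMPK-KO samples (AMPKfl/flLyz2cre/cre mice) against 3 WT samples (their AMPKfl/fl littermates), which by their label carry the floxed alleles and no Cre, both at day 15. The second comparison set 3 late-stage samples from day 15 against 3 early-stage samples from day 8, all from mice labelled WT. In the AMPK-KO mice Cre is driven from the Lyz2 locus, so that deletion is expected in myeloid cells at large and not in macrophages alone. The genotype labels of AMPK-KO replicates 2 and 3 read Lyz3cre and Lyz4cre, while their titles read Lyz2cre. The labels do not say whether the samples of a group came from separate mice, so p-values measure the spread between these samples.

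In the canonical pathway, interferon alpha or beta binds the receptor made of IFNAR1 and IFNAR2, and kinases on the receptor then activate the complex ISGF3, which includes STAT2 and IRF9 and binds the interferon-stimulated response element (ISRE) in the promoters of the genes it switches on. Interferon gamma uses another receptor and acts chiefly through a different element, GAS, and many genes answer to both cytokines. The products of the 45 genes include transcription factors that renew the response, sensors of foreign nucleic acids, effectors that block viral replication, and enzymes and nuclear proteins that modify the response.

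Promoters of 36 members were found in the RefSeq sequences of the mouse build GRCm38.p6, each covering 250 bases before and 50 bases after a transcription start. The letters GAAANNGAAA, or TTTCNNTTTC when read on the other strand, stand for the core of an ISRE. They occurred in the window of 19 of these 36 members (52.8%) and of 3.99% of all 27025 genes with a promoter in that table. Counting only the bases before the start, 16 of 36 members (44.4%) and 3.46% of all genes held a match. The letters TTCNNNGAA, the core of a GAS, which read the same on both strands, were in the window of 7 of 36 members (19.4%) and of 9.55% of all genes. The stretches below were picked among the members with a match before the start. Their genes lead the comparisons that follow or are the usual readouts of the response. Dtx3l, Irf7 and Oasl1, which are prominent there as well, held no ISRE letters in the window. They run 5′ to 3′ on the strand of the gene and end before the transcription start, and capitals mark the ISRE letters.
Isg15 (chr4:156200855-156200916, minus strand): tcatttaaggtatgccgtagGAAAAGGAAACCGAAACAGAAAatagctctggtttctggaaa
Ifit1 (chr19:34640765-34640833, plus strand): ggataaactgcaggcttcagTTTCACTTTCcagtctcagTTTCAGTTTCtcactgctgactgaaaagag
Ifit3 (chr19:34583353-34583436, plus strand): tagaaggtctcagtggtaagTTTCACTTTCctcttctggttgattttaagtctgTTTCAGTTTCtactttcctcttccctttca
Rsad2 (chr12:26456543-26456592, minus strand): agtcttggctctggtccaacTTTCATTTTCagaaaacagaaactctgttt
Bst2 (chr8:71537567-71537622, minus strand): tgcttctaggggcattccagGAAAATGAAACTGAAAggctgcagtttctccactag
Stat2 (chr10:128270256-128270305, plus strand): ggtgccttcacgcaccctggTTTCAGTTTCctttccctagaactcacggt
Ifi205 (chr1:174031860-174031909, minus strand): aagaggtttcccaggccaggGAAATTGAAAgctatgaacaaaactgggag
Ifi211 (chr1:173913054-173913103, minus strand): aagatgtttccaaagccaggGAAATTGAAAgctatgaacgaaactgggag
Isg15 held 3 overlapping matches and Bst2 held 2, while the 2 matches of Ifit1 and of Ifit3 lay apart. The stretches of Ifi205 and Ifi211, genes that lie within 100000 bases of each other on chromosome 1, were identical at 46 of 50 bases. A match is a description of the letters and does not show that a factor binds there.

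Total counts ranged from 71019494 to 81671067 in the AMPK-KO and WT samples and from 77155066 to 84470374 in the early-stage and late-stage samples, and no pair of samples of a group agreed within sampling noise (chi-square per degree of freedom of at least 9.65). The macrophage markers Adgre1 and Csf1r, which encode F4/80 and the receptor of CSF-1, were at 810 to 1000 and 922 to 1340 CPM, the count scaled by library size, in every sample. Prkaa1, which encodes AMPKα1, was at 68.8, 62.8 and 63.3 CPM in WT TAMs and at 47.0, 40.9 and 40.8 CPM in AMPK-KO TAMs (log2 fold change −0.60, SE 0.07, adjusted p = 2.3e-04), a count over the whole gene. Lyz2, the gene that marks myeloid cells and carries Cre, was at 9.16 to 13.5 CPM in all WT and AMPK-KO samples, but at 1090 to 3010 CPM in the early-stage and late-stage samples. The near-identical neighbor Lyz1 was at 314 to 500 CPM in the first table and at 28.8 to 104 CPM in the second. Lyz2 thus did not separate WT from AMPK-KO samples, and in WT it was far below the early-stage and late-stage samples, also labelled WT. The absence of Cre from the WT samples was therefore not borne out by Lyz2, and the difference between the tables was not tested. The counts of 4 Y-linked genes summed to 9229 to 12183 per sample in the first table, although the methods name female mice. In the second table they summed to 3435 to 4035 at the early stage and to no more than 4 at the late stage. Xist, which is expressed in female cells, had 13568 to 22094 counts in the early-stage samples and 23982 to 41700 in the late-stage samples, so that the stage and the sex of the cells cannot be told apart in any late-stage result below.

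In AMPK-KO TAMs most of the interferon stimulated genes were modestly higher than in WT TAMs. Of the 45 members, 24 rose and 3 fell, so that 27 (60%) had an adjusted p under 0.05, against 21.1% of the 17532 genes tested (11.3% higher and 9.78% lower). The median log2 fold change of the members was 0.19, with a range of −0.45 to 0.58, against −0.0037 over all genes. No member changed by more than 1 on the log2 scale, while 3.34% of all genes did so with an adjusted p under 0.05. The values of 29 members were higher in every AMPK-KO sample than in any WT sample and those of 3 were lower in every one, together 71.1% of members against 37.2% of all genes (18.8% higher and 18.4% lower). The summed level of the members was 7454, 7436 and 7417 CPM in the WT samples and 8559, 8405 and 8343 CPM in the AMPK-KO samples. Among the settings tried, 19 of the 27 calls held in all 12, and the count was lowest, at 19, without WT replicate 3. In bulk samples a change in the share of a cell type and a change of RNA per cell cannot be told apart.

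**Figure D1:**
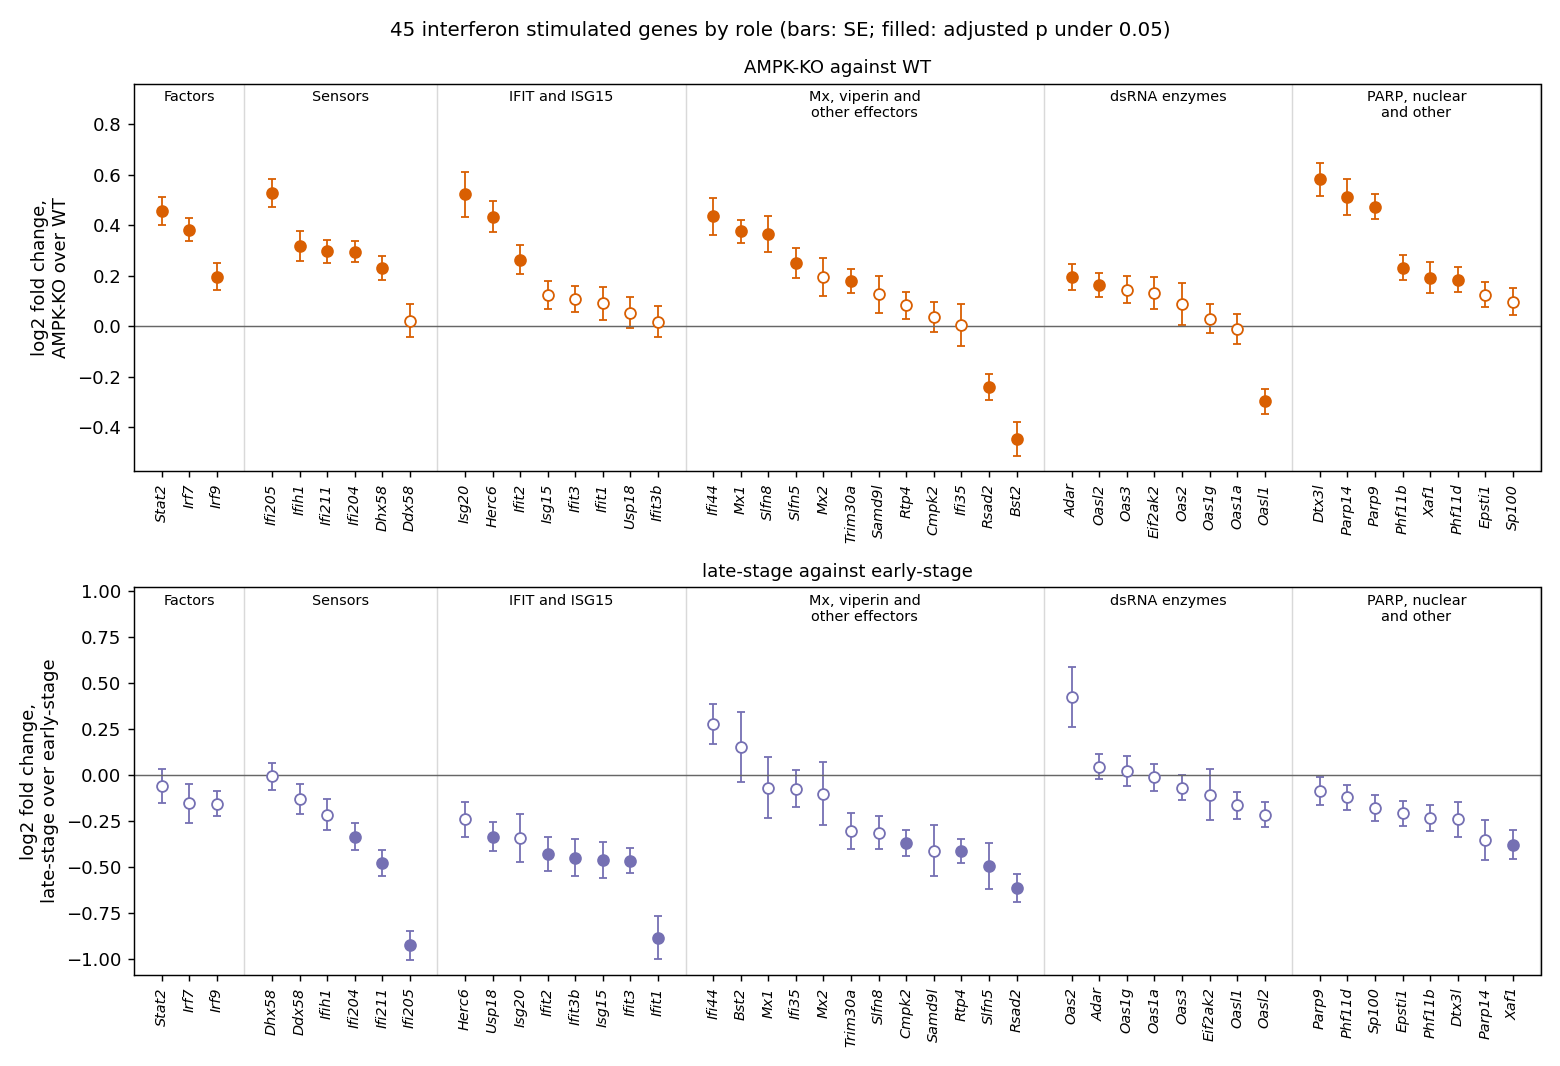
Log2 fold change (y axis) of the 45 interferon stimulated genes, grouped by role along the x axis, for AMPK-KO against WT (top) and late-stage against early-stage (bottom). Points are edgeR estimates with bars of 1 SE (n = 3 samples a group), and filled points had an adjusted p under 0.05. In the top panel 24 filled points lie above 0 and 3 below, and in the bottom panel all 14 filled points lie below 0.

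The 3 transcription factors among the members all rose. Irf7, the regulator that amplifies interferon alpha production, was at 535, 574 and 559 CPM in WT TAMs and at 719, 707 and 751 CPM in AMPK-KO TAMs, and rose by 0.38 on the log2 scale (SE 0.05, adjusted p = 1.8e-04). Stat2, the interferon-specific subunit of ISGF3, was at 218, 197 and 209 CPM in WT and at 300, 283 and 273 CPM in AMPK-KO TAMs (log2 fold change 0.46, SE 0.06, adjusted p = 2.3e-04). For both genes the lowest AMPK-KO sample was well above the highest WT sample. Irf9, the DNA-binding subunit of ISGF3, was at 90.9, 95.9 and 97.6 CPM in WT and at 111, 109 and 106 CPM in AMPK-KO TAMs. Its groups did not overlap either, and it rose by 0.20 on the log2 scale (SE 0.05, adjusted p = 0.0222). This call held in 9 of 12 settings, and the adjusted p was 0.0558 without WT replicate 3, 0.0892 without AMPK-KO replicate 1 and 0.0837 without AMPK-KO replicate 2.

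Of the 6 sensors of nucleic acids, 5 rose. Ifi205, a member of the AIM2-like family of DNA-binding proteins, had the smallest adjusted p of all members, at 108, 120 and 109 CPM in WT and at 159, 162 and 164 CPM in AMPK-KO TAMs (log2 fold change 0.53, SE 0.05, adjusted p = 7.9e-05). The AMPK-KO samples lay close together and far above the WT samples. Its relatives Ifi204 and Ifi211 rose by 0.30 each on the log2 scale, though the shared sequence of this family makes the split of reads between its genes uncertain. Of the RNA helicase genes 2 of 3 rose. Ifih1, which encodes the long dsRNA sensor MDA5, was at 118, 105 and 114 CPM in WT and 144, 144 and 134 CPM in AMPK-KO TAMs (log2 fold change 0.32, SE 0.06, adjusted p = 0.0036). Dhx58, which encodes the regulator LGP2, rose by 0.23 (SE 0.05, adjusted p = 0.0074), a call held in 11 of 12 settings. Ddx58, which encodes RIG-I, was at 131, 110 and 119 CPM in WT and 127, 121 and 118 CPM in AMPK-KO TAMs. The 2 groups of Ddx58 values overlapped fully (log2 fold change 0.02, SE 0.07, adjusted p = 0.861), and the difference between Ifih1 and Ddx58 was not tested.

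Several genes often used to read out a type I interferon response did not pass. In the group of ISG15, the IFIT proteins and their partners, 3 of 8 genes rose, namely Isg20, Herc6 and Ifit2, and 5 did not pass. Isg15, the ubiquitin-like modifier that interferon induces, was at 142, 157 and 150 CPM in WT and at 159, 160 and 172 CPM in AMPK-KO TAMs. The groups did not overlap, but the log2 fold change of 0.12 (SE 0.06) had an adjusted p of 0.153. Ifit1, which binds viral RNA caps, was at 78.0, 82.9 and 78.3 CPM in WT and at 92.2, 82.9 and 79.6 CPM in AMPK-KO TAMs (log2 fold change 0.09, SE 0.07, adjusted p = 0.381). The AMPK-KO values of Ifit1 began inside the WT range. Ifit3, the partner of Ifit1, was at 203, 205 and 205 CPM in WT and at 216, 211 and 234 CPM in AMPK-KO TAMs (log2 fold change 0.11, SE 0.05, adjusted p = 0.170), and reads of Ifit3 may be shared with its near-copy Ifit3b. Usp18, which removes ISG15 and dampens the receptor, was at 72.1, 79.3 and 69.6 CPM in WT and at 77.5, 76.0 and 75.9 CPM in AMPK-KO TAMs. Its AMPK-KO values all lay within the WT range (log2 fold change 0.05, SE 0.06, adjusted p = 0.602). By contrast the exonuclease gene Isg20 rose by 0.52 (SE 0.09, adjusted p = 0.0020) and Herc6, the mouse ligase for ISG15, by 0.43 (SE 0.06, adjusted p = 6.1e-04). Ifit2, the first gene of the Ifit cluster on chromosome 19, rose by 0.26 (SE 0.06, adjusted p = 0.0079).

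In the group of Mx proteins, viperin and other antiviral effectors, 5 of 12 genes rose, 2 fell and 5 did not pass. Mx1, a gene of the dynamin-like GTPase family, was at 116, 116 and 122 CPM in WT and at 153, 154 and 152 CPM in AMPK-KO TAMs (log2 fold change 0.38, SE 0.05, adjusted p = 2.9e-04). Its 3 AMPK-KO samples were the most alike of any member in that group. Ifi44, Slfn8, Slfn5 and Trim30a rose as well, by 0.44, 0.37, 0.25 and 0.18 on the log2 scale, with the calls of Slfn5 and Trim30a held in 9 and 8 of 12 settings. The largest fall of all members was that of Bst2, which encodes tetherin, a membrane protein that holds budding virions. Bst2 was at 485, 578 and 518 CPM in WT and at 366, 384 and 408 CPM in AMPK-KO TAMs (log2 fold change −0.45, SE 0.07, adjusted p = 9.0e-04). Rsad2, which encodes viperin, was at 196, 190 and 201 CPM in WT and at 174, 164 and 159 CPM in AMPK-KO TAMs (log2 fold change −0.24, SE 0.05, adjusted p = 0.0077). For both genes every AMPK-KO sample was below every WT sample. Both held ISRE letters before their start, as shown above, while Oasl1, the other member that fell, held none.

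Of the 8 enzymes that bind dsRNA or act on it, 2 rose, 1 fell and 5 did not pass. Oasl2 and Oasl1 encode 2'-5' oligoadenylate synthetase-like proteins and lie next to each other on chromosome 5. Oasl2 was at 321, 301 and 296 CPM in WT and at 348, 341 and 340 CPM in AMPK-KO TAMs (log2 fold change 0.16, SE 0.05, adjusted p = 0.0319), a call that held in 6 of 12 settings. Oasl1 was at 197, 198 and 193 CPM in WT and at 157, 154 and 167 CPM in AMPK-KO TAMs (log2 fold change −0.30, SE 0.05, adjusted p = 0.0017), a call that held in all 12. The ratio of Oasl1 to Oasl2 counts within a sample, which library scaling does not touch, was 0.614, 0.658 and 0.650 in WT and 0.453, 0.453 and 0.491 in AMPK-KO TAMs. Oas2, a synthetase whose product activates RNase L, was at 172, 138 and 157 CPM in WT and at 175, 151 and 170 CPM in AMPK-KO TAMs. Its groups overlapped (log2 fold change 0.09, SE 0.08, adjusted p = 0.510), and Oas1a, Oas1g, Oas3 and the kinase gene Eif2ak2 did not pass either. Oas1a and Oas1g are close copies, so the split of reads between them is uncertain. Adar, which encodes the RNA-editing deaminase ADAR1, rose by 0.20 (SE 0.05, adjusted p = 0.0203), a call held in 8 of 12 settings.

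The last group, of PARP, nuclear and other proteins, had 6 genes that rose and 2, Sp100 and Epsti1, that did not pass. It holds the member with the largest log2 fold change, Dtx3l, and the member with the second smallest adjusted p, Parp9, which encode a ubiquitin ligase and its binding partner and lie head to head on chromosome 16. Dtx3l was at 125, 112 and 119 CPM in WT and at 189, 181 and 164 CPM in AMPK-KO TAMs (log2 fold change 0.58, SE 0.07, adjusted p = 1.3e-04). Parp9 was at 98.2, 102 and 106 CPM in WT and at 143, 144 and 139 CPM in AMPK-KO TAMs (log2 fold change 0.47, SE 0.05, adjusted p = 9.6e-05). Every AMPK-KO sample was higher than every WT sample for both genes. Parp14, another gene of this cluster, rose by 0.51 (SE 0.07, adjusted p = 5.8e-04). Phf11b, Phf11d and Xaf1 rose by 0.23, 0.19 and 0.19, of which Phf11b and Phf11d are close copies, and the calls of Phf11d and Xaf1 held in 8 and 4 of 12 settings.

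**Figure D2:**
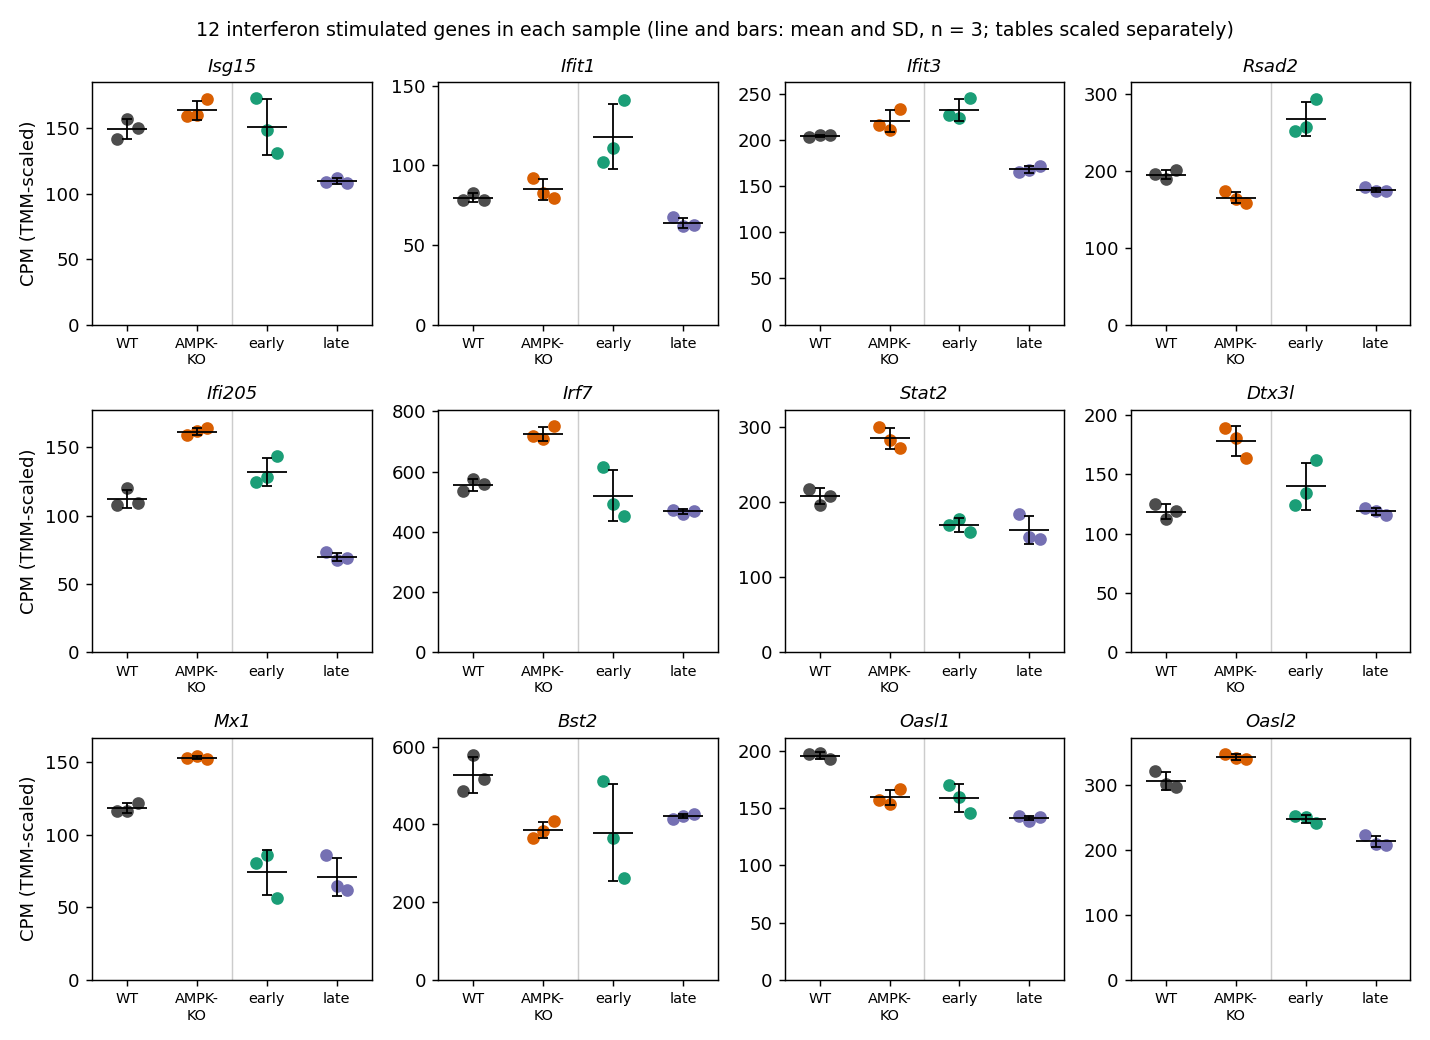
Level in CPM (y axis, starting at 0) of 12 interferon stimulated genes in each of the 12 samples, with the mean and SD of each group (n = 3). Points of a group are ordered by replicate number, and the WT and AMPK-KO samples were scaled separately from the early-stage and late-stage samples. Every AMPK-KO sample lies above every WT sample for Isg15, Ifit3, Ifi205, Irf7, Stat2, Dtx3l, Mx1 and Oasl2, and below for Rsad2, Bst2 and Oasl1. Every late-stage sample lies below every early-stage sample for Isg15, Ifit1, Ifit3, Rsad2, Ifi205, Dtx3l, Oasl1 and Oasl2. Of these, Isg15 and Ifit3 in AMPK-KO and Dtx3l, Oasl1 and Oasl2 in late-stage TAMs had no adjusted p under 0.05.

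The pathway genes that are not members were counted from a fixed list of 56 symbols, of which 54 were in the tables and 38 were tested. Of these 38, 21 (55.3%) rose in AMPK-KO TAMs and 0 fell with edgeR, against 11.3% of all genes higher and 9.78% lower. DESeq2 called 22 higher and 0 lower, and at an unadjusted p under 0.05 edgeR had 23 higher and 0 lower. Ligands were scarce, as 16 of 17 had too few counts to test and 11 had none. Ifnb1, the interferon beta gene, was at 2.24, 3.01 and 1.85 CPM in WT and at 1.90, 2.26 and 1.66 CPM in AMPK-KO TAMs (log2 fold change −0.29, SE 0.24, adjusted p = 0.465). The receptor genes Ifnar1 and Ifnar2 had log2 fold changes of 0.18 (SE 0.06, adjusted p = 0.0564) and −0.0007 (SE 0.05, adjusted p = 0.995). None of these 3 genes passed in edgeR, while Ifnar1 had an adjusted p of 0.0291 with DESeq2. Downstream of the receptor, Irf1, a factor that both interferon alpha or beta and interferon gamma induce, rose from 142, 145 and 144 CPM to 310, 288 and 298 CPM (log2 fold change 1.06, SE 0.05, adjusted p = 3.3e-07). Socs1, the inhibitor of JAK kinases, rose from 13.1, 16.7 and 14.9 CPM to 40.0, 41.4 and 44.8 CPM (log2 fold change 1.50, SE 0.10, adjusted p = 3.1e-06). For Irf1 and Socs1 every AMPK-KO sample was above every WT sample. Irf3, which acts before interferon is made, did not pass (log2 fold change 0.07, SE 0.07, adjusted p = 0.487).

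For comparison, the 29 genes of a list better known as induced by interferon gamma, made of guanylate-binding proteins, immunity-related GTPases, MHC class II genes, chemokines and a few others, had a median log2 fold change of 1.20 in AMPK-KO TAMs. Of these 29, 28 rose and 23 rose by more than 1 on the log2 scale, and their summed level was 9249, 9977 and 9542 CPM in WT and 22790, 23571 and 24150 CPM in AMPK-KO TAMs. Ciita, the master regulator of MHC class II, had a log2 fold change of 1.47 and Gbp2 of 1.20, against at most 0.58 for any of the 45 members. The difference between the 2 lists was not tested.

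**Figure D3:**
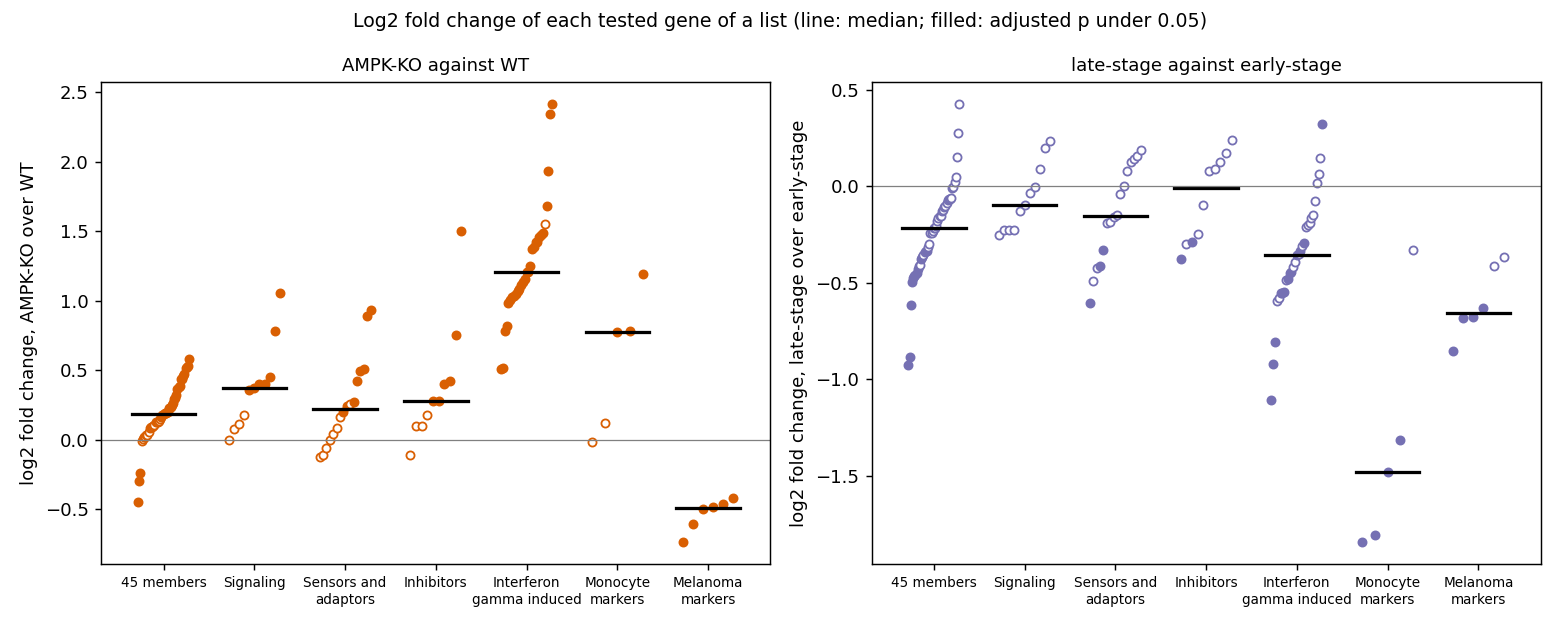
Log2 fold change (y axis) of each tested gene of the 45 members, of 3 lists of other type I interferon pathway genes, of the interferon gamma induced list and of monocyte and melanoma markers (x axis), for AMPK-KO against WT (left) and late-stage against early-stage (right). Lines are list medians and filled points had an adjusted p under 0.05. In the left panel the member median is 0.19 and that of the interferon gamma induced list 1.20, and in the right panel they are −0.21 and −0.35.

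Markers of other cells moved with genotype as well. Of 5 monocyte markers 3 rose in AMPK-KO TAMs and 0 fell, and their summed level was 446 to 488 CPM in WT and 774 to 803 CPM in AMPK-KO TAMs. All 6 markers each of NK cells and of conventional dendritic cells rose, from 31.4 to 36.6 up to 77.2 to 82.4 CPM and from 80.4 to 90.8 up to 125 to 132 CPM. T cell markers rose for 6 of 7 genes, from 83.3 to 99.5 up to 160 to 168 CPM, and 6 of 6 melanoma markers fell, from 919 to 925 down to 615 to 645 CPM. Markers of plasmacytoid dendritic cells, known as strong producers of interferon alpha, summed to 69.3 to 73.2 CPM in WT and 61.0 to 66.0 CPM in AMPK-KO TAMs, with 1 of 5 tested markers higher, 1 lower and the defining marker Siglech at only 0.235 to 0.601 CPM. Of 8 macrophage markers 2 rose and 1 fell, and they summed to 11440 to 12787 CPM in WT and 11559 to 11927 CPM in AMPK-KO TAMs. Neutrophil markers rose for 4 of 6 tested genes (111 to 119 against 183 to 185 CPM, with 1 of 7 at 0 counts), fibroblast markers for 4 of 4 (431 to 475 against 567 to 625 CPM) and endothelial markers for 1 of 4 with 1 lower, while 4 of 5 B cell markers fell (31.0 to 32.4 against 19.9 to 22.1 CPM). The part of these cells in the changes of the members was not tested.

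The interferon stimulated genes that passed in late-stage TAMs were all lower than in early-stage TAMs. Of the 45 members, 14 fell and 0 rose, which is 31.1% against 9.18% of the 17630 genes tested (4.31% higher and 4.88% lower). The median log2 fold change of the members was −0.21, with a range of −0.93 to 0.42, against 0.0027 over all genes. Again no member passed 1 on the log2 scale, while 1.87% of all genes did so with an adjusted p under 0.05. By sign alone, log2 fold changes were below 0 for 40 of 45 members, against 49.6% of all genes below and 50.4% above, where 41 of 45 had been above 0 in AMPK-KO TAMs, against 49.5% of all genes above and 50.5% below. The values of 28 members were lower in every late-stage sample than in any early-stage sample and those of 1, Ifi44, were higher in every one, together 64.4% against 31.2% of all genes (15.6% in each direction). At an unadjusted p under 0.05, 27 members were lower and 2, Oas2 and Ifi44, higher, where 24.5% of all genes passed (32.6% in the comparison of AMPK-KO with WT). DESeq2 called 20 members lower and 1 higher. The summed level was 7217, 7156 and 7436 CPM in the early-stage samples and 6350, 6031 and 6057 CPM in the late-stage samples.

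The number of calls depended on single libraries. It was 23 without early-stage replicate 1, 6 without early-stage replicate 2, 7 without late-stage replicate 1, 6 without late-stage replicate 2 and 6 without late-stage replicate 3. The median log2 fold change of the members stayed between −0.24 and −0.20 in these and the other fits that left out a library. Ifit1, Ifit3, Rsad2, Rtp4, Ifi205 and Ifi211 were called lower in all 12 settings.

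In the group of ISG15, the IFIT proteins and their partners 6 of 8 genes fell, the largest share of any role, and 5 of these 6 had not been called in AMPK-KO TAMs. Ifit1 was at 102, 111 and 141 CPM in early-stage and at 67.6, 61.8 and 62.8 CPM in late-stage TAMs (log2 fold change −0.88, SE 0.12, adjusted p = 0.0015). Ifit3 was at 227, 224 and 246 CPM in early-stage and at 165, 168 and 172 CPM in late-stage TAMs (log2 fold change −0.47, SE 0.07, adjusted p = 0.0028). The late-stage samples of both genes were close together and below every early-stage sample. Isg15 was at 173, 149 and 131 CPM in early-stage and at 109, 112 and 108 CPM in late-stage TAMs (log2 fold change −0.46, SE 0.10, adjusted p = 0.0180), and its call held in 7 of 12 settings. Usp18 was at 88.9, 83.1 and 77.5 CPM in early-stage and at 64.3, 65.8 and 67.7 CPM in late-stage TAMs (log2 fold change −0.34, SE 0.08, adjusted p = 0.0260), a call that held in 6 of 12 settings. Neither gene overlapped between the stages. The other Ifit members, Ifit2 and Ifit3b, fell as well, by log2 fold changes of −0.43 and −0.45, and both calls held in 7 of 12 settings. Isg20 and Herc6, which had risen in AMPK-KO TAMs, had log2 fold changes of −0.34 and −0.24 with an adjusted p of 0.138 and 0.145.

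Among the antiviral effectors 4 of 12 fell, namely Rsad2, Slfn5, Rtp4 and Cmpk2. Rsad2 was at 253, 258 and 294 CPM in early-stage and at 179, 174 and 174 CPM in late-stage TAMs (log2 fold change −0.61, SE 0.08, adjusted p = 0.0012). Its neighbor Cmpk2, a mitochondrial nucleotide kinase gene that lies head to head with Rsad2 on chromosome 12, fell by 0.37 on the log2 scale (SE 0.07, adjusted p = 0.0110), a call held in 8 of 12 settings as against 6 for Slfn5. The ratio of Rsad2 to Cmpk2 counts was 2.36, 2.34 and 2.50 in early-stage and 2.07, 1.98 and 2.03 in late-stage TAMs, and it was 2.41, 2.29 and 2.43 in WT and 1.96, 1.90 and 2.04 in AMPK-KO TAMs. In both comparisons the ratio thus did not overlap between the groups. Rtp4, a chaperone of membrane receptors, was at 160, 153 and 151 CPM in early-stage and at 117, 114 and 118 CPM in late-stage TAMs (log2 fold change −0.41, SE 0.07, adjusted p = 0.0044). Mx1 was at 80.1, 85.8 and 56.3 CPM in early-stage and at 85.6, 64.5 and 61.8 CPM in late-stage TAMs, with overlapping groups (log2 fold change −0.07, SE 0.17, adjusted p = 0.846). Bst2 varied most of all members among the early-stage samples, at 512, 364 and 262 CPM in early-stage and at 415, 422 and 426 CPM in late-stage TAMs (log2 fold change 0.15, SE 0.19, adjusted p = 0.681).

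Of the sensors, Ifi205, Ifi211 and Ifi204 fell, the last of them in 8 of 12 settings, and the 3 RNA helicase genes did not pass. Ifi205 was at 125, 128 and 144 CPM in early-stage and at 73.2, 67.7 and 68.7 CPM in late-stage TAMs, the largest change of any member (log2 fold change −0.93, SE 0.08, adjusted p = 1.4e-04). Ifi211 was at 287, 275 and 307 CPM in early-stage and at 212, 206 and 207 CPM in late-stage TAMs (log2 fold change −0.48, SE 0.07, adjusted p = 0.0024). No late-stage sample of either gene reached the early-stage range. Ifih1 was at 111, 129 and 133 CPM in early-stage and at 109, 103 and 110 CPM in late-stage TAMs, just below the early-stage values (log2 fold change −0.21, SE 0.08, adjusted p = 0.145). Ddx58 was at 104, 107 and 124 CPM in early-stage and at 102, 101 and 104 CPM in late-stage TAMs (log2 fold change −0.13, SE 0.08, adjusted p = 0.375).

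None of the 8 dsRNA enzymes and none of the 3 transcription factors passed in edgeR, where 1 dsRNA enzyme was higher and 1 lower, and 1 transcription factor was lower, at an unadjusted p under 0.05. With DESeq2 Oas2 and Oasl2 had an adjusted p of 0.0395 and 0.0457. Oas2 was at 65.9, 78.6 and 59.9 CPM in early-stage and at 118, 81.3 and 75.0 CPM in late-stage TAMs (log2 fold change 0.42, SE 0.17, adjusted p = 0.146). Late-stage replicate 1 stood above the others, and the groups overlapped. Oasl2 was at 252, 250 and 241 CPM in early-stage and at 223, 209 and 208 CPM in late-stage TAMs, without overlap (log2 fold change −0.21, SE 0.07, adjusted p = 0.0770). The Oasl pair did not separate the stages by its ratio. The ratio of Oasl1 to Oasl2, which had differed by genotype, was 0.676, 0.638 and 0.606 in early-stage and 0.638, 0.667 and 0.684 in late-stage TAMs. Irf7 was at 615, 494 and 451 CPM in early-stage and at 473, 460 and 470 CPM in late-stage TAMs (log2 fold change −0.15, SE 0.11, adjusted p = 0.419). Stat2 was at 170, 178 and 160 CPM in early-stage and at 184, 153 and 151 CPM in late-stage TAMs (log2 fold change −0.06, SE 0.09, adjusted p = 0.743). Both genes overlapped between the stages. Irf9 was at 96.1, 98.6 and 93.3 CPM in early-stage and at 88.1, 86.2 and 84.2 CPM in late-stage TAMs (log2 fold change −0.16, SE 0.07, adjusted p = 0.191). In the group of PARP, nuclear and other proteins 1 of 8 genes fell, Xaf1, by 0.38 on the log2 scale (SE 0.08, adjusted p = 0.0167), in 9 of 12 settings.

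The early-stage samples differed among themselves by gene. Early-stage replicate 1 had the highest value of the 3 for 11 members, among them Isg15, Isg20, Usp18, Bst2, Oas1a, Oasl1 and Irf7, and the lowest for 22. Early-stage replicate 3 had the highest value for 26 members, among them the 4 Ifit genes, Rsad2, Slfn5 and Ifi205, and the lowest for 16. The median coefficient of variation of the members was 8.42% in the early-stage samples, with a largest value of 33.2% for Bst2, against 3.44% in the late-stage, 4.93% in the WT and 3.94% in the AMPK-KO samples.

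Of the other pathway genes, 5 of 38 (13.2%) fell in late-stage TAMs and 0 rose. That share was near the 9.18% of all genes called in either direction, of which the part called lower was 4.88% of all genes. The 5 genes were Ticam2, Zbp1, Ifi209, Ptpn2 and Samhd1, and 3 of the 38 were higher and 12 lower at an unadjusted p under 0.05. DESeq2 called 9 lower and 1 higher. The count with edgeR was 8 without early-stage replicate 1 or early-stage replicate 3, 2 without early-stage replicate 2, 3 without late-stage replicate 1, and 1 without late-stage replicate 2 or late-stage replicate 3. Ifnb1 was at 4.92, 4.54 and 3.64 CPM in early-stage and at 3.14, 2.41 and 2.64 CPM in late-stage TAMs, without overlap (log2 fold change −0.68, SE 0.20, adjusted p = 0.0636 with edgeR and 0.0322 with DESeq2). Ifnar1 and Ifnar2 had log2 fold changes of −0.23 (SE 0.07, adjusted p = 0.0778) and −0.25 (SE 0.09, adjusted p = 0.104). Irf1, Irf3 and Socs1 did not pass, at log2 fold changes of −0.23, 0.20 and −0.25. Of the 29 genes of the interferon gamma induced list, 12 fell and 1, Cxcl9, rose, with a median log2 fold change of −0.35.

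Markers of other cells moved with the stage. Of 5 monocyte markers 4 were lower in late-stage TAMs, and their summed level was 518 to 608 CPM in early-stage and 209 to 239 CPM in late-stage samples. Melanoma markers were lower for 4 of 6 genes, from 1545 to 1667 down to 701 to 1133 CPM, and NK cell markers for 4 of 6, from 67.4 to 82.2 down to 38.1 to 50.6 CPM. Macrophage markers summed to 8817 to 11063 CPM in early-stage and 11873 to 11988 CPM in late-stage samples, with 1 of 8 higher. None of 5 tested markers of plasmacytoid dendritic cells passed in edgeR, with 0 under an unadjusted p of 0.05, and they summed to 60.7 to 77.2 and 63.5 to 66.0 CPM. Lower were also 2 of 5 tested neutrophil, 2 of 4 fibroblast, 1 of 4 endothelial and 1 of 6 conventional dendritic cell markers, and higher were 3 of 5 B cell, 2 of 7 T cell and 1 of 6 conventional dendritic cell markers. The part of these cells in the changes of the members was not tested.

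The comparisons share no samples, and their values for the members can be set side by side. Higher in AMPK-KO and lower in late-stage TAMs were 6 members, Ifit2, Slfn5, Ifi204, Ifi205, Ifi211 and Xaf1, which is 25% of the 24 that rose in the first and 42.9% of the 14 that fell in the second. Rsad2 was called lower in both. A further 7, Isg15, Ifit1, Ifit3, Ifit3b, Usp18, Cmpk2 and Rtp4, were called lower in late-stage TAMs and not in AMPK-KO TAMs. Called in AMPK-KO and not in late-stage TAMs were 18 higher and 2 lower, and 11 were called in neither, and whether the changes of a gene differed between the comparisons was not tested. The shares of all genes with such joint calls or signs were not counted. By sign 37 of 45 members were higher in AMPK-KO and lower in late-stage TAMs. Across the 45 members, however, the sizes of the 2 log2 fold changes had little relation (Pearson r = −0.108, Spearman rho = −0.062), genes of 1 pathway being no independent points. Members with ISRE letters before their start had median log2 fold changes of 0.14 in AMPK-KO (n = 16, 7 higher and 2 lower) and −0.38 in late-stage TAMs (8 lower). The medians were 0.19 (n = 20, 12 higher and 1 lower) and −0.19 (3 lower) for those with a promoter but no such letters.

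**Figure D4:**
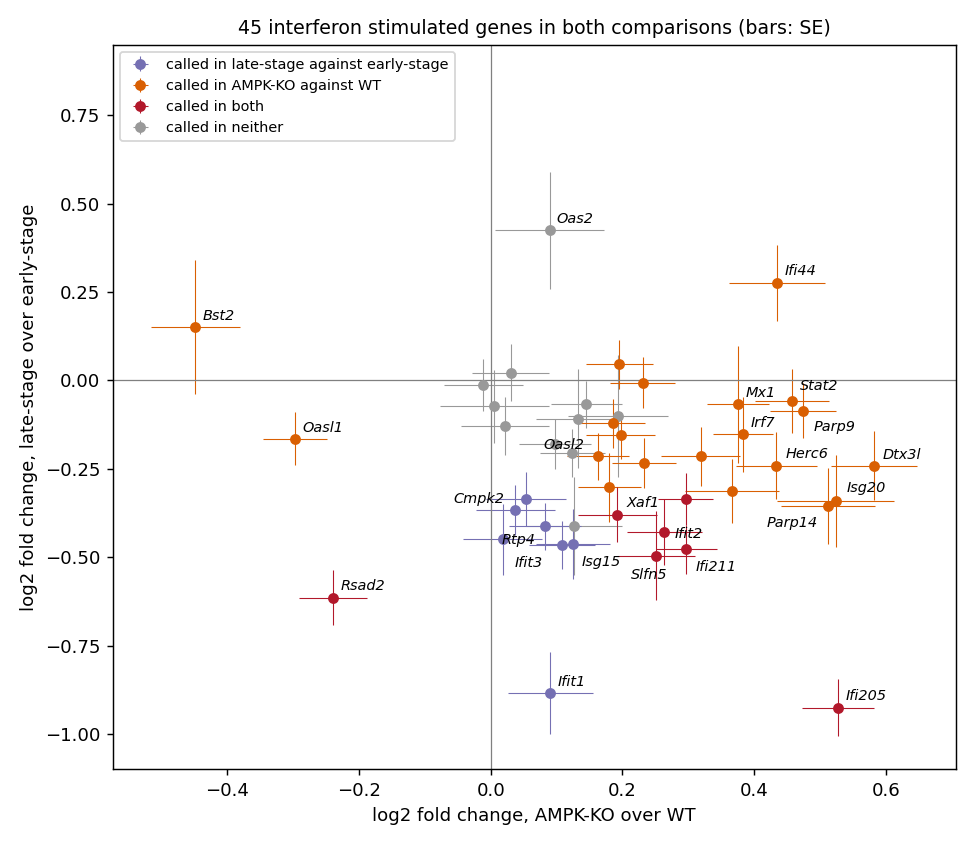
Log2 fold change of each of the 45 interferon stimulated genes in AMPK-KO against WT TAMs (x axis) and in late-stage against early-stage TAMs (y axis), with bars of 1 SE. Colors mark where the adjusted p was under 0.05. Most points lie to the right of 0 and below 0, Rsad2 lies below 0 on both axes, and Ifi205 is far out on both in opposite directions.

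Levels can be compared between genes only per length. Levels per kilobase of exon could be computed for 43 members but not for Isg15 and Mx1, whose places in the order are unknown. Among the 43, Bst2 was the highest in every group. Its mean was 584 RPKM in WT, 428 in AMPK-KO, 420 in early-stage and 466 in late-stage TAMs. Ifi211 and Irf7 followed in every group, at 148 and 147 RPKM in WT and at 182 and 192 RPKM in AMPK-KO TAMs, and these neighbors in the order were not tested against each other. Isg20, Herc6, Mx2 and Ifi44 were the 4 lowest of the 43 in every group, between 3.50 and 14.1 RPKM.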

How the data were processed

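Bulk RNA-seq of TAMs sorted from tumors was analyzed in 12 samples, 3 per group. The authors mapped reads with HISAT2 and counted them per gene with featureCounts, and they deposited raw read counts, with 1 table per comparison. The submitters' processing notes name FastQC, HISAT2, featureCounts and DESeq2 and the builds mm10 and GRCm38, while the methods write GRCh38. Versions and the handling of strand and of reads that map to several genes are not given in the sources used here, so values of close copies, overlapping and antisense genes are uncertain. No column of per-sample values was left unused.

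Each table was fitted alone on all its genes with edgeR 4.0.16 in R 4.3.3 (filterByExpr, TMM, glmQLFit and glmQLFTest, no covariates), with Benjamini-Hochberg adjustment across every gene tested. A call needed an adjusted p under 0.05, whatever the fold change. CPM used TMM library sizes, and SE is the standard error of the log2 fold change. Of the identifiers, 54349 match GENCODE M21 with their version, and 43 of 45 members took a position and an exon length for RPKM from it. Promoter sequences came from RefSeq (GRCm38.p6), where 36 of 45 symbols matched. The fits were tested on simulated data.

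The members, the lists and the naming rule were chosen with earlier results of these data known. Named with full values were 13 standard readouts and, per comparison, up to 6 called members of smallest adjusted p in each direction, the 2 largest changes and a few pathway genes, of which 1 is not reported here. Other members named within a role group, and the ratios of neighboring genes, were chosen after their values were seen. The alternatives comprised other scaling (RLE, upper quartile), DESeq2 1.42.0, a filter of only 1 count over the table or of 10 counts per library, unadjusted p-values, a fold threshold, a replicate block and the omission of single libraries. The 12 settings within which a call was followed were the scaling, filter, DESeq2, block and left-out-library alternatives.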

Additional observations from a re-analysis of the deposited data

How the results depend on the processing

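The median log2 fold change of the members kept its sign in every alternative run, and was 0.1694 to 0.1919 for AMPK-KO and −0.2445 to −0.1997 for late-stage TAMs when a library was left out. The number of members called in AMPK-KO TAMs was 19 to 27 without 1 library, 27 with DESeq2 and 25 with no filter beyond 1 count. It was 0 with an absolute log2 fold change above 1 also required, and 0 by the rule of the study, DESeq2 with an unadjusted p under 0.05 and that fold, which was added after seeing the data. In late-stage TAMs it was 14, and 9 with no filter beyond 1 count, 21 with DESeq2, 29 at an unadjusted p under 0.05, 0 with the fold and 0 by the rule of the study, and 6 to 23 without 1 library. The other pathway genes called in late-stage TAMs numbered 5, against 10 with DESeq2 and 1 to 8 without 1 library. The cause of these differences was not tested. Among the 12 settings the log2 fold change took both signs for 5 of 45 members in AMPK-KO and for 8 of 45 in late-stage TAMs, none of them called in the reported fit. Of these Bst2 in late-stage TAMs was called in 1 of 12 settings (lowest adjusted p = 0.0414 with edgeR or DESeq2, log2 fold change −0.058 to 0.432), and none of the others in any. Of the genes named with full values, Ifnar2 in AMPK-KO TAMs was at 8e-04 with DESeq2 and −0.0411 to 0.0233 without 1 library, Ddx58 in AMPK-KO TAMs at −0.0339 to 0.0882, and Mx1 in late-stage TAMs at −0.2324 to 0.0493. Samples with the same replicate number did not deviate together (correlations of deviations 0.00 to 0.04), so no pairing by number was seen. Such correlations over 3 samples a group cannot show that the samples are unpaired, and the labels do not say what a number shares. With the replicate number as a block 26 members were called in AMPK-KO and 12 in late-stage TAMs, and 3 other pathway genes in late-stage TAMs. Scaling by RLE or upper-quartile factors moved the median of all genes by −0.0143 to 0.00122. With 3 samples a group the SE of the members' log2 fold changes was 0.04 to 0.19, which limits the changes that can be detected.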
